A study of Caenorhabditis elegans with 24 samples.

Results

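Oxidative phosphorylation genes encode the machinery with which mitochondria make most of a cell's ATP. Complexes I and II pass electrons to ubiquinone, complex III passes them on to cytochrome c, complex IV hands them to oxygen, and complex V (ATP synthase) uses the proton gradient that complexes I, III and IV build. Complex IV also needs assembly factors that make its heme A and deliver its copper but do not stay in the finished enzyme. In Caenorhabditis elegans some subunits are encoded by more than one gene, and the b subunit gene asb-1 is known from work in this species as a form used in the germ line.

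The genes described here are those with a probe set annotated with 1 gene symbol that starts with nuo-, cox-, atp-, asb-, asg-, ucr-, cyc-, sdha-, sdhb- or sdhd-, or that is gas-1, isp-1, mev-1 or lpd-5. They number 42 of 17118 genes with a probe set of their own, and 57 of 22548 probe sets name them alone. Complex I has 7 of them, complex II 5, complex III 6, cytochrome c 2, complex IV 7 subunits and 6 assembly factors, and complex V 9. Each gene is given by its brightest probe set, and 13 genes had more than 1. The probe sets of 20 genes end in _s_at or _x_at, which marks probes that may also match other transcripts, so their values may include such transcripts. Another 24 complex I subunits, named ndua-, ndub-, nduf-, ndab- or nduc-, were measured and are counted separately below. Cyc-2.2, one of the cytochrome c genes, lay at the floor on 15 of the 24 arrays, so no difference is given for it and it is left out of ranges and plots.

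The study measured RNA of whole young adult worms on single-channel Affymetrix arrays. The strains were glp-1 (JK1107, a point mutant in the germline Notch receptor, which at the rearing temperature of 25 °C makes few germ cells), xpa-1 (RB864, outcrossed 3 times, a deletion mutant in a nucleotide excision repair factor) and N2, the wild type. Animals 24 h after the vulval crescent L4 stage received 50 J/m2 of UVC with an emission peak at 254 nm and were frozen 3 h later, or were left untreated as controls. The 6 groups were glp-1 UV, glp-1 control, xpa-1 UV, xpa-1 control, N2 UV and N2 control, each with 4 arrays, 2 from 2007 and 2 from 2008 (24 arrays in all). Each pellet held 3000 to 5000 animals. Labelling started from 500 pg of RNA in 2007 and 100 ng in 2008 with a different kit, so year, input and kit cannot be told apart. The labels leave it unsaid whether replicates came from separate cultures; the p-values reflect the spread among these arrays, which may be technical. Values of 4 arrays are given in the order 2007 replicate 1, 2007 replicate 2, 2008 replicate 1 and 2008 replicate 2.

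Across the 2008 arrays the deposited intensities had medians of 68.9 to 190.5, against 4.24 to 8.42 across those of 2007; medians over the 42 genes were 1995 to 3895 in 2008 and 95.7 to 376 in 2007. Values below are log2(normalized intensity + 32), whose lowest value is 5.00; the added constant understates changes of dim genes, and levels of different probe sets are not compared. In glp-1 control minus N2 control the standard error had a median of 0.17 over the 42 genes and 0.32 over all genes. The xpa-1 gene itself read 5.00 to 6.59 in the 8 xpa-1 arrays and 8.92 to 10.07 in the 8 N2 arrays. It also read 5.00 to 7.41 in the 8 glp-1 arrays, which carry no labelled xpa-1 mutation. Identical columns numbered 0.

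Untreated glp-1 worms, set against untreated N2 worms, had lower RNA for a small group of autosomal genes: ucr-2.3 (complex III), asb-1 (complex V), sdha-2 (complex II) and the complex IV assembly genes cox-17, cox-11, cox-15, cox-18 and cox-19. With quantile normalization over all arrays, the X-linked counterparts of ucr-2.3, asb-1 and sdha-2 were higher (ucr-2.1, ucr-2.2, asb-2 and sdha-1). None of these counterparts was called higher (adjusted p under 0.05) with values as deposited. Of the 42 genes 10 were higher and 9 lower in glp-1 controls at a Benjamini-Hochberg adjusted p under 0.05 (limma, over all probe sets). Over all probe sets 19.7% were higher and 18% lower, so the share of these genes that differed was near that of the array as a whole. The median difference was 0.09 for the 42 genes and 0.07 for all genes. All 4 glp-1 control arrays lay above all 4 N2 control arrays for 7 of the 42 genes and below them for 7, against 16.3% and 15.5% of all genes.

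**Figure D1:**
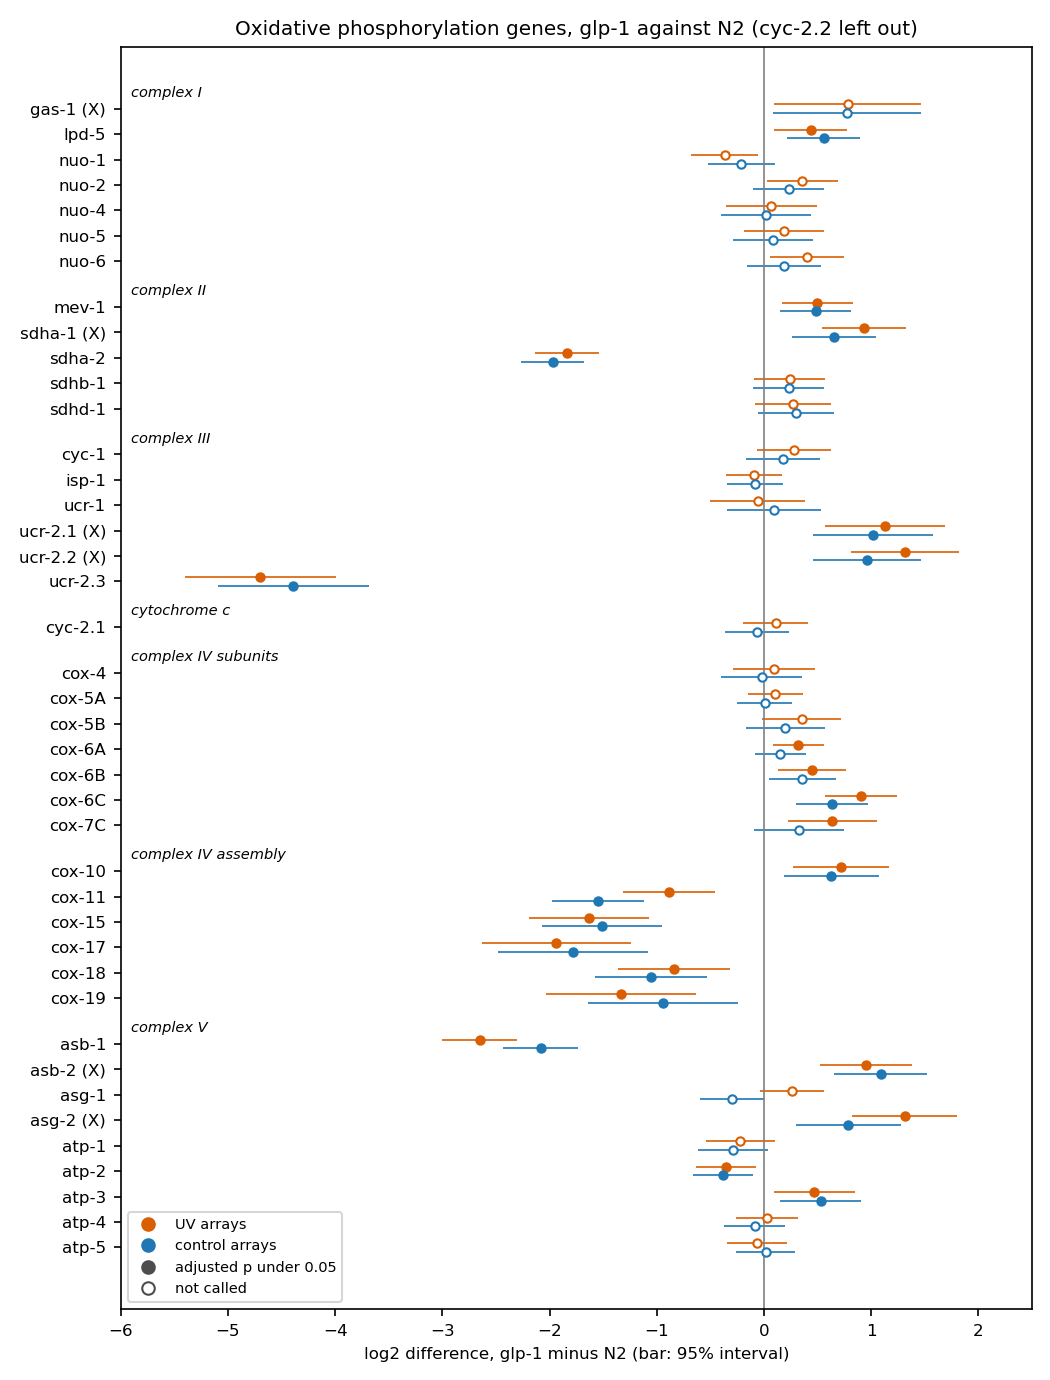
Log2 difference (glp-1 minus N2) of 41 genes (without cyc-2.2) with its 95% interval, for UV arrays (orange) and control arrays (blue), 4 arrays a group; filled points have an adjusted p under 0.05 and (X) marks genes on chromosome X. Ucr-2.3 at -4.70 after UV and -4.39 in controls lies furthest left, followed by asb-1 at -2.65 and -2.08, while most complex I and complex IV subunits lie near 0.

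The number of higher genes depended on how arrays were scaled, and most of the lower ones did not. With values as deposited, with median centring, with scaling to the 75th percentile and with quantile normalization within each year, the control comparison gave 0, 5, 24 and 10 higher genes and 9, 8, 8 and 9 lower ones. The median of all genes in that comparison was -0.08, 0.32, 0.10 and 0.07 under the same 4 scalings. In the control comparison 8 genes were lower under all 5 scalings (sdha-2, ucr-2.3, cox-11, cox-15, cox-17, cox-18, cox-19 and asb-1), and 0 were higher under all 5. In UV arrays the counts were 1, 1, 28 and 14 higher and 15, 8, 7 and 10 lower. Under all 5 scalings 7 genes were lower after UV and 1, cox-10, was higher (as deposited 0.47, limma adjusted p = 0.0200); cox-18 missed at the 75th percentile, at -0.42 with a limma adjusted p of 0.10. Statements below that a gene was higher in glp-1 therefore refer to quantile normalization over all arrays. For the genes described here that were called higher against N2 controls, the value as deposited is also given. For other gene lists, and for single genes against xpa-1 controls, it is not.

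**Figure D2:**
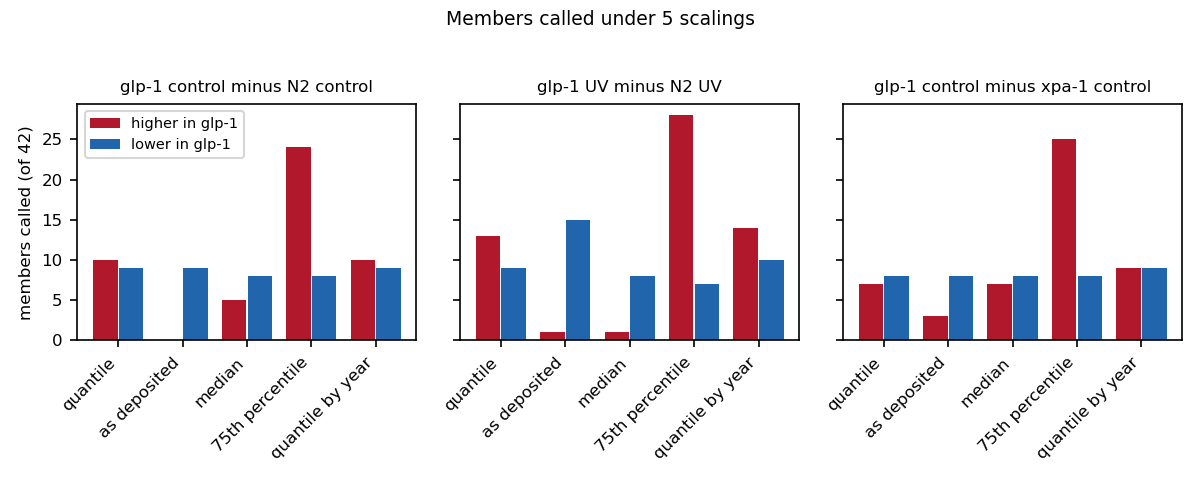
Number of the 42 genes called higher (red) and lower (blue) in glp-1 under 5 scalings, for glp-1 control minus N2 control, glp-1 UV minus N2 UV and glp-1 control minus xpa-1 control. The blue bars stay between 7 and 10 except for 15 in UV arrays as deposited, and the red bars run between 0 and 28.

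In complex V the 2 genes for the b subunit differed in opposite directions. For asb-1, one of the genes for the b subunit of the stalk that holds the catalytic head of ATP synthase, the glp-1 control arrays read 9.07, 8.98, 8.94 and 8.49, against 11.20, 11.11, 10.69 and 10.81 in N2 controls. The other b subunit gene, asb-2, read 10.36, 10.66, 11.13 and 11.12 in glp-1 controls, against 9.55, 9.28, 10.05 and 10.05 in N2 controls. The arrays of the 2 strains did not overlap for either gene. The difference was -2.08 ± 0.17 (SE, limma adjusted p = 5.0e-09) for asb-1 and 1.09 ± 0.21 (limma adjusted p = 0.00024) for asb-2. Within 2008 it was -2.04 for asb-1 and 1.08 for asb-2, and within 2007 -2.13 and 1.10; asb-2 in 2007 alone had a limma adjusted p of 0.099. As deposited, asb-2 was 0.73 higher with a limma adjusted p of 0.142.

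After UV the asb-1 arrays read 8.82, 8.43, 9.10 and 8.33 in glp-1, against 11.20, 11.59, 11.18 and 11.32 in N2, again without overlap, a difference of -2.65. The asb-2 arrays after UV read 10.18, 10.37, 11.22 and 11.10 in glp-1, against 10.13, 9.07, 10.12 and 9.73 in N2, a difference of 0.95 with no overlap. As deposited, that asb-2 difference was -0.0028, so its sign was not kept. The xpa-1 controls read 11.29, 11.10, 10.996 and 11.16 for asb-1, in the range of the N2 arrays, and the difference of glp-1 controls from them was -2.26.

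Subunit g, a small membrane part of ATP synthase, also has 2 genes. For asg-2 the glp-1 control arrays read 10.40, 10.83, 11.06 and 10.82, against 10.21, 9.93, 9.85 and 9.97 in N2 controls, with no overlap and a difference of 0.79 (limma adjusted p = 0.0111). For asg-1 they read 10.24, 10.34, 10.61 and 10.46, against 10.75, 10.90, 10.56 and 10.63, with overlap and a difference of -0.30 that was not called (limma adjusted p = 0.115). The asg-2 difference was 1.03 within 2008 (limma adjusted p = 0.00814) and 0.54 within 2007 (0.481 in the same test), and 1.31 after UV. As deposited it was 0.37 in controls and not called (limma adjusted p = 0.489).

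The other complex V genes differed by 0.53 or less. Atp-3, the stalk protein that confers oligomycin sensitivity, was higher in glp-1 controls (0.53, limma adjusted p = 0.0264), in 3 of 5 scalings and not as deposited (0.18, limma adjusted p = 0.741), and atp-2, the catalytic beta subunit, lower (-0.38, limma adjusted p = 0.0268). The glp-1 control arrays read 12.19, 12.49, 12.73 and 12.42 for atp-2, against 12.71, 12.75, 12.99 and 12.92 in N2 controls. Atp-1 (alpha, -0.29), atp-4 (-0.09) and atp-5 (0.01) were not called. The atp-2 difference became 0.42 at the 75th percentile, and its call was lost without glp-1 control 2007 replicate 1 or 2008 replicate 2 or N2 control 2007 replicate 1 or 2; that of atp-3 was lost without glp-1 control 2007 replicate 2, N2 control 2007 replicate 2 or N2 control 2008 replicate 1, when the difference was 0.37 to 0.51.

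Complex II, which also serves the tricarboxylic acid cycle as succinate dehydrogenase, showed the same arrangement in its flavoprotein. For sdha-2 the glp-1 control arrays read 9.26, 9.31, 8.81 and 8.94, against 11.21, 11.13, 10.87 and 11.005 in N2 controls, with no overlap. For sdha-1 they read 11.06, 11.26, 11.24 and 11.09, against 11.14, 10.54, 10.04 and 10.33, with 1 N2 array inside the glp-1 range. The difference was -1.97 ± 0.14 (SE, limma adjusted p = 9.8e-10) for sdha-2 and 0.65 ± 0.19 (limma adjusted p = 0.0083) for sdha-1. After UV it was -1.84 for sdha-2 and 0.93 for sdha-1. The sdha-1 difference was 0.98 within 2008 (limma adjusted p = 0.0037), 0.32 within 2007 (0.473 in the same test) and 0.32 as deposited (0.427). These sdha-1 values come from the brighter of its 2 probe sets, and the dimmer one rose less. With the mean over both, sdha-1 minus sdha-2 differed by 2.40 instead of 2.70 between glp-1 and N2 over both treatments.

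The other subunits of complex II differed less. Mev-1, the cytochrome b subunit, read 10.33, 10.95, 10.60 and 10.48 in glp-1 controls, against 10.35, 10.12, 9.92 and 10.04 in N2 controls, with overlap, a difference of 0.48 (limma adjusted p = 0.0208). That call was lost without glp-1 control 2007 replicate 2 or 2008 replicate 1 or N2 control 2008 replicate 1, and as deposited the difference was -0.0041. Sdhb-1, the iron-sulfur subunit (0.23), and sdhd-1, the second membrane anchor (0.30), were not called.

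Complex III held the difference furthest from 0 among the 42 genes in this comparison, in ucr-2.3, one of 3 genes for the second core protein. Its glp-1 control arrays read 5.41, 7.13, 6.61 and 6.02, against 11.20, 11.33, 10.02 and 10.19 in N2 controls. The glp-1 values lay near the lowest value possible on this scale, so the difference of -4.39 ± 0.34 (SE, limma adjusted p = 2.6e-09) may understate the change. It was -3.79 within 2008, -4.99 within 2007 and -4.70 after UV.

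The other core protein 2 genes went the opposite way. For ucr-2.1 the glp-1 control arrays read 11.62, 11.84, 11.49 and 11.37, against 10.93, 10.51, 10.43 and 10.38 in N2 controls, all above them, a difference of 1.01 ± 0.27 (SE, limma adjusted p = 0.0046). For ucr-2.2 they read 11.09, 11.44, 10.70 and 10.55, against 10.85, 10.30, 9.32 and 9.48, with overlap across years and none within a year, a difference of 0.96 ± 0.24 (limma adjusted p = 0.0032). A second, dimmer ucr-2.2 probe set gave 1.58. As deposited the differences were 0.91 (limma adjusted p = 0.0985) for ucr-2.1 and 0.54 (0.327 in the same test) for ucr-2.2. Within 2008 they were 1.02 and 1.23, both called, and within 2007 they were 1.01 and 0.69, neither called. Cyc-1 (cytochrome c1, 0.18), isp-1 (the Rieske iron-sulfur protein, -0.08) and ucr-1 (core protein 1, 0.09) were not called.

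The paralogue pairs were tested directly, since each array gives the difference between the 2 probe sets and any fixed offset between them cancels between strains. Over 8 glp-1 and 8 N2 arrays, asb-2 minus asb-1 was 3.39 higher on the log2 scale in glp-1, sdha-1 minus sdha-2 was 2.70 higher, asg-2 minus asg-1 1.07 higher, ucr-2.1 minus ucr-2.3 5.61 higher and ucr-2.2 minus ucr-2.3 5.68 higher. Each had p = 0.00154 in a two-sided exact permutation test within treatment and year, the smallest p that its 1296 permutations can give, and p = 0.00216 after Benjamini-Hochberg adjustment over 7 pairs. In these 5 pairs 8 of 8 glp-1 arrays lay above the N2 mean of their treatment and year. The ranges of the 2 strains did not overlap except for asg-2 minus asg-1.

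As group means over both treatments (SD, n = 8 arrays each), asb-2 minus asb-1 was 2.00 ± 0.54 in glp-1 and -1.39 ± 0.63 in N2. Sdha-1 minus sdha-2 was 1.96 ± 0.25 in glp-1 and -0.73 ± 0.40 in N2, and asg-2 minus asg-1 was 0.38 ± 0.12 in glp-1 and -0.69 ± 0.41 in N2. Under the 4 other scalings the strain difference was 3.48 to 3.94 for the asb pair, 2.88 to 3.35 for the sdha pair, 1.13 to 1.24 for the asg pair, 4.98 to 5.73 for ucr-2.1 minus ucr-2.3 and 4.89 to 5.59 for ucr-2.2 minus ucr-2.3, each with an exact permutation adjusted p of 0.00216. Median centring and the 75th percentile were added for the pairs after the data had been seen, and median centring leaves a difference within an array as deposited. Over all 11 alternatives, which also hold 1 year, 1 treatment and other added constants, the ucr pairs moved the most, between 4.66 and 6.26 for ucr-2.1 and between 4.71 and 6.34 for ucr-2.2, where ucr-2.3 lies near the floor in glp-1. The sdha pair differed by 3.07 in 2008 and 2.32 in 2007. With the mean over the 2 probe sets of sdha-1 in place of the brighter one, the sdha pair differed by 2.40 instead of 2.70. Ucr-2.1 minus ucr-2.2 did not pass the test (-0.07, exact permutation adjusted p = 0.765, -0.26 to 0.14 over the alternatives). The last of the 7 pairs, cyc-2.1 and cyc-2.2, is not read because of the floor.

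**Figure D3:**
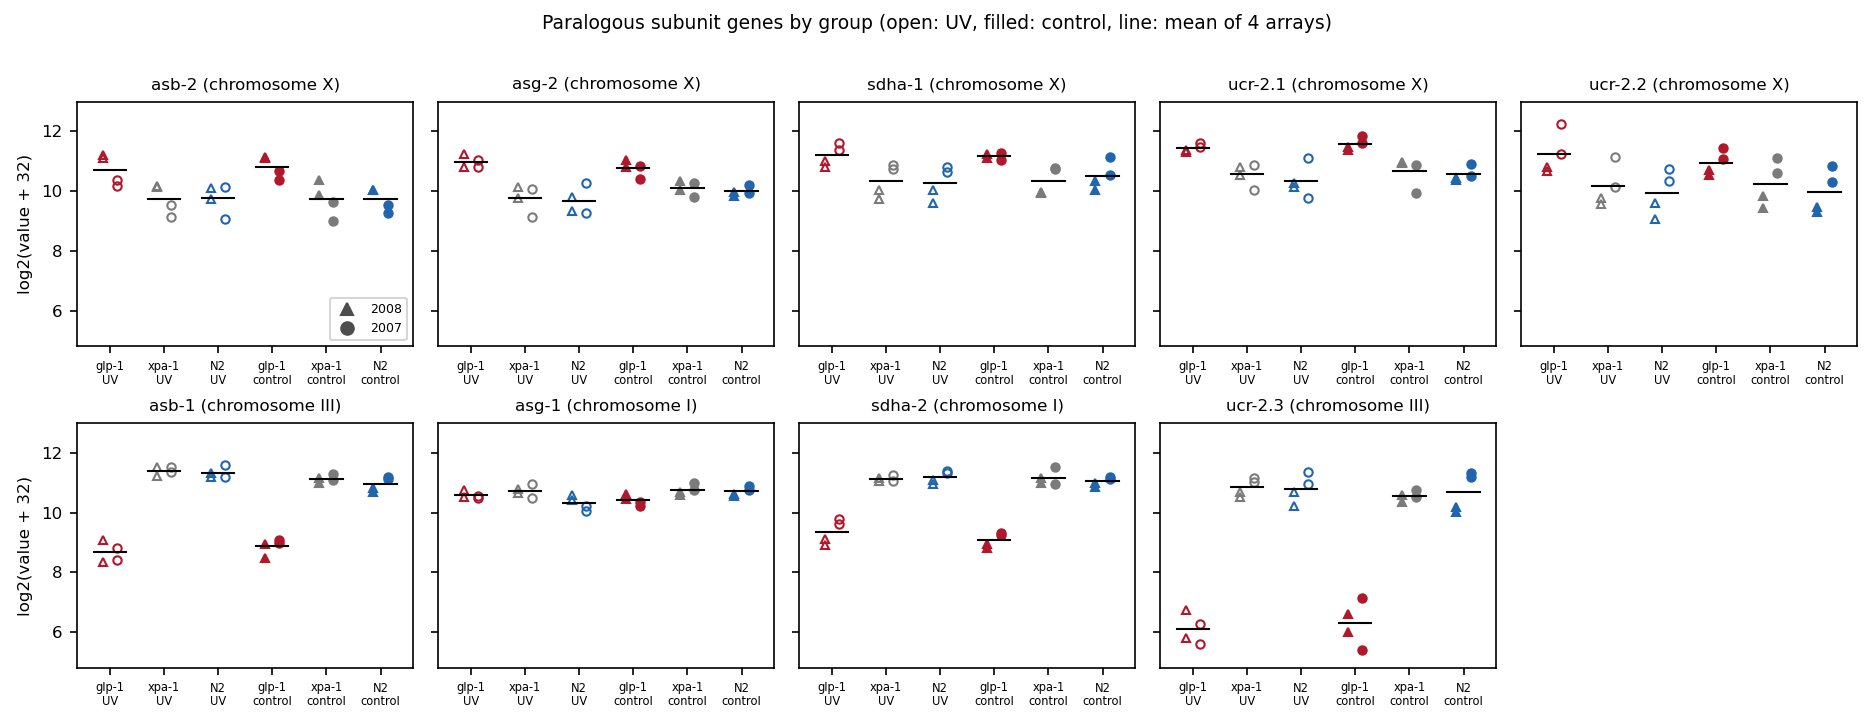
Log2(value + 32) of 9 paralogous subunit genes on each of the 24 arrays by group, with X-linked genes above their autosomal counterparts; open symbols are UV, filled symbols controls, triangles 2008, circles 2007 and lines means of 4 arrays. In the lower row asb-1, sdha-2 and ucr-2.3 stand at 8.33 to 9.10, 8.81 to 9.79 and 5.41 to 7.13 in glp-1, below every array of the other strains, and asg-1 does not separate.

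For cytochrome c, the small electron carrier between complexes III and IV, no difference was called. Cyc-2.1 was -0.07 in controls (95% interval -0.37 to 0.23) and 0.11 after UV (-0.19 to 0.41).

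Within complex IV the structural subunits and the assembly factors are given apart. Of the 7 subunits 1 was higher in glp-1 controls, cox-6C, with a median over the 7 of 0.20. Of the 6 assembly genes 5 were lower and 1 higher, with a median of -1.28, and these 5 were lower under all 5 scalings in controls, where the median ran between -1.28 and -0.79. Over all genes the median was 0.07, and 19.7% of all probe sets were higher and 18% lower.

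Among the assembly genes, cox-17 encodes a copper chaperone of the intermembrane space. Its arrays read 6.05, 6.20, 6.85 and 6.14 in glp-1 controls, against 8.26, 8.91, 7.53 and 7.66 in N2 controls, without overlap, a difference of -1.78 ± 0.33 (SE, limma adjusted p = 0.00021). Cox-11, which inserts copper into the catalytic subunit, read 7.0, 7.99, 8.19 and 8.14, against 9.27, 9.37, 9.51 and 9.37, also without overlap, a difference of -1.55 ± 0.20 (limma adjusted p = 4.1e-06). Cox-15, the heme A synthase, read 9.36, 9.58, 8.28 and 7.62, against 10.46, 10.48, 10.00 and 9.93, a difference of -1.51 ± 0.27 (limma adjusted p = 0.00012). All glp-1 arrays lay below all N2 arrays in these 3 genes.

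Cox-18, a factor for membrane insertion of a mitochondrially encoded subunit, read 7.18, 6.64, 6.86 and 6.87 in glp-1 controls, against 8.44, 8.44, 7.34 and 7.55 in N2 controls, a difference of -1.06 (limma adjusted p = 0.0019). It was -0.58 within 2008 (limma adjusted p = 0.0832) and -1.53 within 2007. Cox-19, a small intermembrane space protein, read 5.40, 5.33, 6.43 and 6.22, against 6.21, 6.92, 6.94 and 7.08, with overlap across years only, a difference of -0.94 (limma adjusted p = 0.0318). That call was lost without any 1 of 5 arrays (glp-1 control 2007 replicates 1 and 2, N2 control 2007 replicate 2, and N2 control 2008 replicates 1 and 2), when the difference was -0.96 to -0.82. Cox-10, which makes heme O, was the exception at 0.63 higher (limma adjusted p = 0.0244), called in 2 of 5 scalings and not as deposited (0.23, limma adjusted p = 0.264). It read 6.32, 5.00, 5.92 and 6.03 in glp-1 controls, against 5.00, 5.00, 5.54 and 5.22 in N2 controls, near the floor in both, and its call was lost without glp-1 control 2007 replicate 1 (0.40), glp-1 control 2008 replicate 2, N2 control 2007 replicate 1 or 2, or N2 control 2008 replicate 2.

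**Figure D4:**
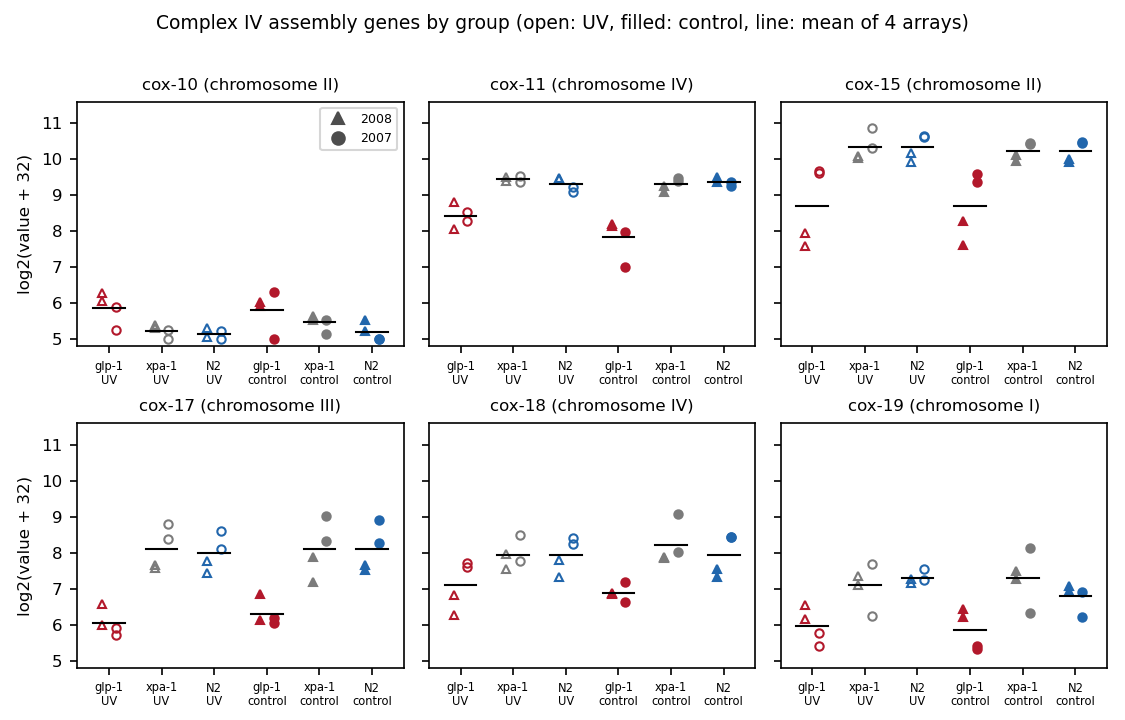
Log2(value + 32) of the 6 complex IV assembly genes on the 24 arrays by group, with symbols as for the paralogous genes. Glp-1 arrays (red) stand lowest for cox-11, cox-15 and cox-17 in both treatments, and cox-10 stays between 5.00 and 6.32 in every group.

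Among the structural subunits, cox-6C read 10.62, 10.88, 11.01 and 10.74 in glp-1 controls, against 10.30, 10.18, 10.09 and 10.13 in N2 controls, without overlap, a difference of 0.64 ± 0.16 (SE, limma adjusted p = 0.0033). As deposited it was 0.23 and not called, and -0.079 after UV. The others lay between -0.02 (cox-4) and 0.36 (cox-6B) in controls, and none of these was called. After UV cox-6A (0.32), cox-6B (0.45) and cox-7C (0.64) were also called; as deposited these 3 were -0.02, -0.20 and -0.30, and all 3 calls were lost without glp-1 UV 2007 replicate 2.

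In complex I only lpd-5, a counterpart of an accessory subunit known in mammals, was called in glp-1 controls. It read 10.29, 9.93, 10.38 and 9.80, against 9.55, 9.46, 9.52 and 9.64 in N2 controls, without overlap, a difference of 0.56 ± 0.16 (SE, limma adjusted p = 0.0099). As deposited it was -0.09 in controls, not called, and after UV -0.73 and called lower (limma adjusted p = 0.0399), so the call after UV reversed. With quantile normalization that UV call was also lost without any 1 of glp-1 UV 2007 replicates 1 and 2, glp-1 UV 2008 replicate 1, N2 UV 2007 replicate 2 and N2 UV 2008 replicates 1 and 2, when the difference was 0.36 to 0.45. Gas-1, a catalytic core subunit on chromosome X, was 0.78 ± 0.33 higher without being called (limma adjusted p = 0.0718); its second probe set was 0.61 in controls, not called, and 0.81 after UV, called (limma adjusted p = 0.0146). Nuo-1, the NADH-binding subunit (-0.21), nuo-2 (0.23), nuo-4 (0.02), nuo-5 (0.09) and nuo-6 (0.19) were not called. In 3 genes with more than 1 probe set the dimmer one had the opposite sign in controls (nuo-5 -0.39, isp-1 0.27 and atp-4 0.40), and none of these was called. Of the 24 other complex I subunits 1 was higher and 1 lower in controls, where 19.7% and 18% of all probe sets were, and 8 and 1 after UV, against 20.3% and 19.5%.

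After UV the comparison of glp-1 with N2 called 13 of the 42 genes higher and 9 lower, against 20.3% and 19.5% of all probe sets. All 10 genes higher and all 9 lower in controls were among them, which is 76.9% of the higher and 100% of the lower genes after UV. The UV and control arrays are separate samples, so these are 2 comparisons of the same strains. Both come from the same fit, with a shared year term and spread per probe set. The overlap over all probe sets was not counted, so this overlap is not read as particular to these genes. Without glp-1 UV 2007 replicate 2 the number of higher genes was 7, and without N2 UV 2008 replicate 2 it was 8.

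Against xpa-1 controls, glp-1 controls had 7 genes higher and 8 lower, where 20.3% and 17.6% of all probe sets were. The higher ones were sdha-1 (0.81), ucr-2.1 (0.89), ucr-2.2 (0.69), cox-6C (0.48), asb-2 (1.09), asg-2 (0.67) and atp-3 (0.54). The lower ones were sdha-2 (-2.08), ucr-2.3 (-4.26), cox-11 (-1.48), cox-15 (-1.53), cox-17 (-1.79), cox-18 (-1.31), cox-19 (-1.45) and asb-1 (-2.26). This comparison shares its glp-1 arrays with the one against N2 controls. Without xpa-1 control 2007 replicate 1 the number of higher genes was 2, and without glp-1 control 2008 replicate 1 it was 4. The scalings gave 3 higher as deposited, 7 with median centring, 25 at the 75th percentile and 9 within each year, with 8, 8, 8 and 9 lower. Under all 5 scalings sdha-1, ucr-2.1 and asb-2 were higher and the 8 genes named were lower.

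Over both other strains together, all 4 glp-1 control arrays lay below all 8 xpa-1 and N2 control arrays for 7 genes (sdha-2, ucr-2.3, cox-11, cox-15, cox-17, cox-18 and asb-1) and above all 8 for 3 (ucr-2.1, cox-6C and asg-2), against 12.8% and 13% of all genes. After UV the counts were 7 below and 4 above, against 13.4% and 12.5% of all genes; nuo-1 replaced cox-18 among the lower genes, and asb-2 joined the higher ones.

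Germ line and oocyte markers moved with these differences. All 17 listed genes were lower in glp-1 controls, with a median difference of -5.81, and their summed normalized intensity was 447 to 1401 in glp-1 controls, against 54070 to 85215 in N2 controls. Between 2 and 7 of the 17 lay at the floor in glp-1 control arrays and 0 in N2 control arrays. Of the sperm list 0 were higher and 1 of 29 lower. The summed intensity of this list ran between 705 and 35003 in N2 control arrays, against 2167 to 6690 in glp-1 controls. With that spread among N2 arrays, the few calls do not show that sperm RNA was alike in the 2 strains. In somatic lists 6 of 11 intestine, 2 of 12 body wall muscle, 1 of 5 pharynx and 6 of 10 neuron genes were higher and 0 lower. Their medians were 0.80, 0.70, 0.58 and 1.02. Over all probe sets 19.7% were higher and 18% lower, so the muscle and pharynx counts of higher genes were near that share. In whole worms, fewer cells of a type and less RNA per cell cannot be told apart, and the part of these markers in the differences was not tested.

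By the annotation (WBcel235, RefSeq), 6 of the 42 genes lie on chromosome X (gas-1, sdha-1, ucr-2.1, ucr-2.2, asb-2 and asg-2), and 5 of these were higher and 0 lower in glp-1 controls, after UV, and against xpa-1 controls. Of the 36 autosomal ones 5 were higher and 9 lower in controls. Over all genes with a known chromosome the shares were 35% higher and 4.51% lower among 2350 genes on X, and 18.9% higher and 20.9% lower among 14717 on autosomes, with medians of 0.45 and 0.03.

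Neighbouring pathways in mitochondria were counted in the same comparison of glp-1 with N2 controls, where 19.7% of all probe sets were higher and 18% lower. Of 59 mitochondrial ribosome genes, which make the subunits encoded in mitochondrial DNA, 0 were higher and 42 lower, with a median of -1.02; the number lower was 38 to 56 over the 5 scalings. Mrpl-11 (-2.50), mrpl-18 (-2.28) and mrpl-12 (-2.26) were furthest down. Of 4 measured assembly factors with other symbols all were lower: sft-1 (-1.31) and sco-1 (-1.13), which act in complex IV assembly, and nuaf-3 (-0.62) and nuaf-1 (-0.52), which act in complex I assembly. After UV 2 of these 4 were called lower and against xpa-1 controls 0.

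Among genes of the tricarboxylic acid cycle and its feeders the counts were near those shares of the whole array. Of 21 genes 5 were higher: the isocitrate dehydrogenase genes idhg-2 (1.74), idhb-1 (1.11) and idh-2 (1.08), with aco-2 (aconitase, 1.67) and sucl-1 (a succinyl-CoA ligase subunit, 1.26). The 4 lower ones were sucg-1 (another succinyl-CoA ligase subunit, -1.61), idhg-1 (isocitrate dehydrogenase, -0.81), pdha-1 (pyruvate dehydrogenase, -0.54) and idha-1 (-0.31). Of 7 ubiquinone synthesis genes coq-1 (1.72) and coq-2 (0.50) were higher and coq-8 (-0.67) lower. Of 4 ADP/ATP carrier genes ant-1.3 was lower (-1.32).

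UV had no detectable effect on any of the 42 genes in any strain. In limma 0 were called in glp-1, 0 in xpa-1 and 0 in N2, where 0%, 0.031% and 0% of all probe sets were called. At an unadjusted p under 0.05 there were 1 (cox-11, 0.59 higher in glp-1 UV than glp-1 control), 1 (nuo-6, 0.38 in xpa-1) and 2 (asb-1, 0.37, and asg-1, -0.39, in N2), against 7.26%, 5.8% and 2.71% of all probe sets. With array weights 1 gene was called in xpa-1. The median half-width of a 95% interval, not adjusted for the number of probe sets, was 0.35 and the widest 0.70 (cyc-2.2 left out). The adjustment over all probe sets is stricter than these intervals, and cox-11 at 0.59 was not called. UV effects of such a size may therefore be missed with 4 arrays a group.

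**Figure D5:**
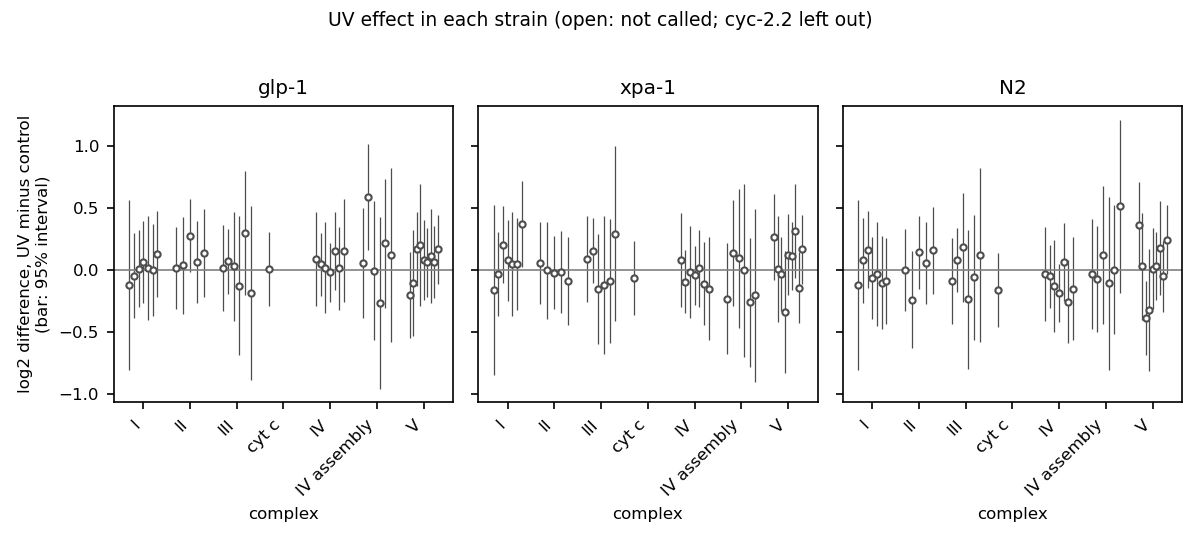
Log2 difference (UV minus control) of 41 genes (without cyc-2.2) with 95% intervals, in glp-1, xpa-1 and N2, ordered by complex; open points are not called. The values run between -0.26 and 0.59 in glp-1, -0.34 and 0.38 in xpa-1, and -0.39 and 0.52 in N2, and the point highest in glp-1 is cox-11.

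The cox-11 arrays read 8.53, 8.28, 8.80 and 8.07 in glp-1 UV, against 7.0, 7.99, 8.19 and 8.14 in glp-1 control. They overlapped, and the limma adjusted p was 0.56. The test of whether the UV effect differed between strains called 0 genes for glp-1 against N2 and 0 for xpa-1 against N2, where 0% and 0% of all probe sets were called. At an unadjusted p under 0.05 there were 3 for glp-1 against N2 (cox-11 0.66, asb-1 -0.57 and asg-1 0.56, each with a limma adjusted p of 0.9955) and 0 for xpa-1.

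The xpa-1 strain did not differ detectably from N2 in these genes. Of the 42 genes 0 were called between xpa-1 and N2 controls and 0 between xpa-1 UV and N2 UV, where 0.00887% and 0.0133% of all probe sets were called by limma. At an unadjusted p under 0.05 there were 0 and 2 (cox-6A and asg-1). Differences ran between -0.20 (nuo-6) and 0.51 (cox-19) in controls and between -0.21 (cox-19) and 0.40 (asg-1) after UV.

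Between the years 11 of the 42 genes were called higher in 2008 and 12 lower, against 24.1% and 28% of all probe sets. As deposited 41 were higher and 0 lower, and at the 75th percentile 2 and 28, so scaling set the direction and no values per gene are given. The year difference depended on strain (glp-1 minus the mean of xpa-1 and N2) for 3 genes, 1 higher and 2 lower, against 5.01% and 4.96% of all probe sets: cox-17 (1.38, limma adjusted p = 0.0086), cox-15 (-1.20, 0.0017) and nuo-4 (-0.71, 0.041). Scaling turned 2 of these: as deposited cox-17 was called the other way (-1.20, limma adjusted p = 0.0037) and its sign also turned with median centring and within each year, and nuo-4 was 0.51 with median centring, not called. The glp-1 minus N2 control difference of cox-15 was -2.02 within 2008 and -1.0 within 2007, and that of cox-17 was -1.10 within 2008 and -2.46 within 2007. Both genes were lower in glp-1 in each year.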

How the data were processed

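The intensity values are those the authors deposited, 1 table of 22548 probe sets with 1 column for each of 24 arrays (0 columns of no sample), on a linear scale with 18.6% of values below 0. The sources used here give no summary, background or scaling method. Labelling differed by year, per the labels' protocols. The array number, not a read depth, limits precision.

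Deposited intensities were quantile normalized over all arrays, floored at 0 and turned into log2(value + 32). Limma 3.58.1 (R 4.3.3) was fitted to all probe sets as group means plus year, with 17 residual and 2.24 prior degrees of freedom; year contrasts used a mean per strain, treatment and year (12). Tests were two-sided, with Benjamini-Hochberg adjustment across the 22548 probe sets and a limit of 0.05. The fit was tested on simulated data. Paralogue pairs were tested by exact permutation of strain labels within treatment and year; 1 treatment or 1 year alone could not go below p = 0.0556.

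Probe sets were named from the platform annotation supplied, where 20766 carry 1 gene, 887 several and 895 none; 0 symbols needed updating. Members, lists and tests were chosen with earlier results of these data known. Every member is accounted for. Genes to name were the paralogues, nuo-1, sdhb-1, isp-1, cox-4 and atp-2, and the members called in each comparison. Called members were taken up to 6 rises and 6 falls, then the rest for completeness. Where none was called, the 3 of smallest p were taken. Not every value chosen in this way is printed for every comparison.

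Replicate numbers could pair arrays within a year. The correlation of the replicate differences was over 0.1 in both years for xpa-1 UV against N2 UV (0.19 and 0.31) and UV in glp-1 (0.11 and 0.40), and not for the other comparisons of groups; no label states a shared culture. Alternatives were other scalings, other added constants (8 and 100), 1 year alone, the dimmest 40% of probe sets left out, a replicate block, other variance models, and each array left out.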

Additional observations from a re-analysis of the deposited data

Results flagged for a closer look

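Within groups of 4 arrays, 31 genes in 6 groups were checked for an array far from the other 3, and 10 of 186 groups had one; chance gives about 1 in 20. Of these 10, 5 were cyc-2.2, whose other arrays lay at or near the floor: glp-1 UV 2007 replicate 2 read 8.08, glp-1 control 2007 replicate 1 read 5.01, xpa-1 UV 2007 replicate 1 read 5.45, N2 UV 2007 replicate 1 read 5.15 and N2 control 2007 replicate 1 read 5.49. Low arrays were xpa-1 control 2007 replicate 1 for ucr-2.1 (9.94), glp-1 control 2007 replicate 1 for cox-11 (7.0) and N2 UV 2007 replicate 2 for atp-2 (12.59). High arrays were N2 UV 2007 replicate 1 for nuo-1 (12.24) and xpa-1 control 2007 replicate 1 for cox-18 (9.07). All 10 were arrays of 2007.

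The difference between 2008 and 2007 depended on strain, by the test of that difference itself (glp-1 minus the mean of xpa-1 and N2), for nuo-4 (-0.71), cox-15 (-1.20) and cox-17 (1.38). In this test 5.01% of all probe sets were called higher and 4.96% lower. The shares among the genes described here were near or below these. The glp-1 control arrays of cox-15 read 8.28 and 7.62 in 2008 and 9.36 and 9.58 in 2007, while the N2 controls read 10.003 and 9.93 in 2008 and 10.46 and 10.48 in 2007. For cox-17 the sign of this year difference was not kept under 3 other scalings, given with the alternatives. For nuo-4 it was not kept with median centring (0.51).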

How the results depend on the processing

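Year, RNA input and kit cannot be told apart, the deposited scaling is unknown, and 4 arrays a group leave a median interval half-width of 0.35. The 2007 arrays, labelled from the smaller input, varied more (median SD within a year 0.11 in 2008 and 0.18 in 2007 for the 42 genes). Dim genes (cyc-2.2, cox-10, cox-19) are the least certain, and cox-17 and ucr-2.3 lie near the floor in glp-1. The cause of each change below was not tested.

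In glp-1 against N2 controls the number of genes higher was 0 in 2007 alone, 0 as deposited, 5 with median centring, 24 at the 75th percentile, 5 with a year term per strain and 6 at an adjusted p of 0.01. After UV it was 0 in 2007 alone, 1 as deposited, 1 with median centring, 28 at the 75th percentile and 6 at 0.01, and the number lower was 5 in 2007 alone and 15 as deposited. Against xpa-1 controls it was 0 in 2007 alone, 3 as deposited, 25 at the 75th percentile and 2 at 0.01. UV in xpa-1 gave 1 gene with array weights. For the year difference 41, 39 and 41 genes were called as deposited, with median centring and within each year; for its dependence on strain 7, 32, 9, 6 and 1 were called as deposited, with median centring, at the 75th percentile, within each year and with array weights. The sdha-1 minus sdha-2 strain difference was 3.07 in 2008 and 2.32 in 2007. Cyc-2.1 minus cyc-2.2, taken against a gene at the floor and not read, turned to 0.74 at the 75th percentile, an alternative chosen after seeing the data.

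Signs turned at the 75th percentile in controls for cyc-2.1 (0.84), isp-1 (0.77), cox-4 (0.67) and atp-2 (0.42), after UV for isp-1 (0.98) and atp-2 (0.59), and against xpa-1 for sdhb-1 (0.67) and isp-1 (0.76). As deposited they turned in controls for lpd-5 (-0.090) and mev-1 (-0.0041), and after UV for asb-2 (-0.0028), cox-6C (-0.079), lpd-5 (-0.73), mev-1 (-0.57), cox-6A (-0.023), cox-6B (-0.20), cox-7C (-0.30) and atp-3 (-0.45). With median centring they turned after UV for lpd-5 (-0.34), mev-1 (-0.17) and atp-3 (-0.058). The strain dependence of the year difference turned for nuo-4 (0.51, median centring) and cox-17 (-1.20 as deposited, -0.61 with median centring, -0.67 within each year).

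Leaving out 1 array at a time gave 8 to 11 genes higher and 7 to 9 lower in controls, 7 to 15 and 8 to 10 after UV, and 2 to 9 and 8 to 9 against xpa-1. It gave 0 to 0 in the UV and xpa-1 comparisons, 21 to 25 for the year difference and 2 to 4 for its strain dependence. Paralogue differences were 3.21 to 3.57 (asb), 0.92 to 1.21 (asg), -0.68 to 0.08 (cyc), 2.62 to 2.77 (sdha), -0.19 to 0.05, 5.42 to 5.80 and 5.47 to 5.89 (ucr-2.1 minus ucr-2.2, ucr-2.1 minus ucr-2.3 and ucr-2.2 minus ucr-2.3).

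With the replicate block 10 genes were higher and 9 lower in controls, 12 and 9 after UV, and 7 and 8 against xpa-1, 0 were called in the UV and xpa-1 comparisons, 20 for the year difference and 2 for its strain dependence. The pairs are hints from the data, not the design.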

Other observations

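A complex I gene outside the selection, nduf-2.2, encodes the same core subunit as gas-1; the pairing was made after its values were seen, so no test of the pair is given. Nduf-2.2 lies on chromosome III and gas-1 on X (WBcel235, RefSeq). Its arrays read 7.88, 8.38, 8.23 and 8.32 in glp-1 controls, against 11.35, 11.83, 10.51 and 10.52 in N2 controls, without overlap, a difference of -2.85 (limma adjusted p = 0.00050). After UV they read 5.33, 5.62, 8.25 and 8.51 in glp-1, against 11.64, 11.68, 10.31 and 10.92 in N2, a difference of -4.20 (limma adjusted p = 6.8e-06), with the 2007 glp-1 arrays the lowest. Gas-1, by its brighter probe set, was 0.78 higher in both comparisons and not called (limma adjusted p = 0.0718 and 0.0671). Its second probe set, given with complex I, was not called in controls and was called higher after UV.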
